A study of Mus musculus with 7 samples.

Results

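The Bcl2 family survival genes were examined as a group of 8 genes, Bcl2, Bcl2l1, Mcl1, Bcl2a1b, Bcl2l11, Bmf, Bbc3 and Pmaip1. ATAC-seq peaks were assigned to a gene when they overlapped its body or the 20 kb on either side (mm10, GENCODE M21). Of 647973 peaks in 7 libraries, 703 were assigned in this way. Overlapping peaks of all libraries were merged into regions, and 138 of 145247 regions belonged to the 8 genes. Bcl2 held 44 of them, Bcl2l1 23, Bmf 16, Pmaip1 15, Mcl1 14, Bcl2l11 11, Bcl2a1b 10 and Bbc3 5.

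The libraries came from sorted bone marrow B-cell precursors of mice, namely pre-proB, proB and preB cells in their order of development, with 7 groups of 1 library each. WT cells carried floxed Erg alleles (Ergfl/fl) and no Cre. The Erg KO pre-proB library carried Rag1CreT/+ and Ergdelta/delta, so the gene for the ETS factor Erg was deleted by a Cre that the study describes as active from the common lymphoid progenitor onward. The 3 Rescue libraries (pre-proB, proB and preB) had this deletion together with IgHVH10tar, a heavy-chain allele that is already productively rearranged. Erg KO cells were profiled here at the pre-proB stage, and WT and Rescue cells at all 3 stages. Stages followed the sample titles. The source names disagreed for every Rescue library: those titled pre-proB, proB and preB are there called proB, preB and pre-proB cells. Without replicates the spread between animals is unknown and no test was possible, so all values are those of single libraries. Intervals on folds and fold ratios cover the counting of fragments alone. Those on shares treat regions as independent draws, though many are neighbours at the same gene, and are not a test against the share of all regions.

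Members of the Bcl2 family decide whether a cell undergoes mitochondrial apoptosis. Bcl2, Bcl-xL (the product of Bcl2l1), Mcl1 and the A1 proteins (of which Bcl2a1b encodes a copy) hold the pore-forming effectors Bax and Bak in check. The BH3-only proteins Bim (from Bcl2l11), Bmf, Puma (from Bbc3) and Noxa (from Pmaip1) bind and neutralise some or all of these guardians. Bim and Puma can also engage the effectors directly. B-cell precursors pass through checkpoints on heavy-chain rearrangement and on survival signals from the pre-B-cell receptor and from interleukin 7, and cells that fail die by this pathway.

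A peak was described by its fold, the pileup of fragments at the summit over the background pileup of the library, with 1 added to both. The fold of a region was that of its highest summit in each library. The lowest fold that was called as a peak lay between 2.32 and 2.63. Where no peak was called, the fold is unmeasured and lies below about that value. The background pileup, which scales with depth, lay between 3.49 and 4.60. Libraries were compared by the regions with a peak in 1 list only, and by the shared regions whose fold ratio exceeded 2 after centring, the subtraction of the median log2 ratio over all shared regions. The median shift was at most 0.16 in size on the log2 scale.

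The 5 sequences that follow, 300 bases around the highest summit of each region on GRCm38.p6, show elements from the patterns described below. The first 3 had a peak in WT pre-proB cells and none in either Erg-deficient pre-proB library, and were more open in WT proB cells. The last 2 were open in pre-proB cells and weak or without a peak in WT proB and preB cells. Capitals mark matches, on either strand, to the motifs that were searched: ETS CCGGAAG, PU.1 GAGGAAGT, RUNX TGTGGTT, EBF1 TCCCNNGGGA, the E2A boxes CAGGTG and CAGCTG, FOXO TGTTTAC, STAT TTCNNNGAA, NF-kB GGGANNNTCC and p53 CATGNNNNNNCATG.
Bcl2l1 intron, chr2:152794470-152794769, plus strand: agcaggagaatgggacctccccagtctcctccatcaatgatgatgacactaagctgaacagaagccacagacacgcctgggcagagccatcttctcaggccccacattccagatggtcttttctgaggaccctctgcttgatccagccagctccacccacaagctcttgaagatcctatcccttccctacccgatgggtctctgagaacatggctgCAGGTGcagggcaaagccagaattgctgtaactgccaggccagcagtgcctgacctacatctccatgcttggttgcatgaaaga
Bmf downstream, chr2:118518677-118518976, plus strand: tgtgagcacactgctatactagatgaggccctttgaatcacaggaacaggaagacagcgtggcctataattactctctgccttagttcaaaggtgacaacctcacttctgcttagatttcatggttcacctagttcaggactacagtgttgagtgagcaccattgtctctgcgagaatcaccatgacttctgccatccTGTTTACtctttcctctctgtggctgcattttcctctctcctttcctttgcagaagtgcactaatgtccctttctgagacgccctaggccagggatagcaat
Bcl2 long intron, chr1:106555542-106555841, plus strand: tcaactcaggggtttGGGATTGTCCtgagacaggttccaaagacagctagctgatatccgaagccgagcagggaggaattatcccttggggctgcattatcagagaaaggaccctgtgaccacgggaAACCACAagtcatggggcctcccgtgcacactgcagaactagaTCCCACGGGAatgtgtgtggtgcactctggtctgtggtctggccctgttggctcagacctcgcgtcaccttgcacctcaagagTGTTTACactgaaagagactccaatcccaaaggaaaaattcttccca
Bcl2l11 intron, chr2:128156104-128156403, plus strand: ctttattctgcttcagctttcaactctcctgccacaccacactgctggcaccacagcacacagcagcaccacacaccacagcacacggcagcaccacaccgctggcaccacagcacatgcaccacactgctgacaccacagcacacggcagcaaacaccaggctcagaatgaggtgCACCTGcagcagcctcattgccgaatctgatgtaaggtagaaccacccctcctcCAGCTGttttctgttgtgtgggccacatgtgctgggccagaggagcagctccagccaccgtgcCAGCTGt
Bcl2 long intron, chr1:106628334-106628633, plus strand: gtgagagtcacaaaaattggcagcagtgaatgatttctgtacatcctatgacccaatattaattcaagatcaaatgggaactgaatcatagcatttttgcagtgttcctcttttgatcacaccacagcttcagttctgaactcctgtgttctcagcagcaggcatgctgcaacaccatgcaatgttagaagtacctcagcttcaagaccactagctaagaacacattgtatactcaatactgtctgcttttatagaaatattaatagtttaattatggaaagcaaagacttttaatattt

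The Bcl2 intron element at 157487 bp from the start site held 1 match each to the NF-kB, RUNX, EBF1 and FOXO patterns. The Bcl2l11 element held 3 E2A boxes, the Bcl2l1 element 1 E2A box and the Bmf element 1 FOXO match. The Bcl2 element at 84695 bp held no match, and had a GC content of 36.7% against 53% in the other Bcl2 element. A match describes the letters in the window and is not evidence of binding. Over the 138 windows, CAGGTG occurred in 34.1% (26.1% of all 145247 regions) and the FOXO pattern in 8.70% (3.94%). The ETS pattern occurred in 5.80% of member windows (3.46% of all), PU.1 in 7.25% (8.52%) and RUNX in 13.8% (13.5%). The EBF1 pattern was present in 4 of the 138 (2.90%, against 1.90% of all regions), CAGCTG in 26.8% (25.5%), STAT in 5.80% (8.96%), NF-kB in 5.07% (3.44%) and p53 in 1.45% (0.959%).

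Promoters, taken as 1000 bp on either side of any annotated start site, were open at nearly all 8 genes in every library. A promoter peak was present in all 7 lists at 7 of the 8 genes, against 58.7% of 21938 coding genes, and the exception was Bcl2a1b, which lacked one in WT preB. The median promoter fold of the members was 51.9 in Erg KO pre-proB, the lowest, and 80.7 in Rescue preB, the highest among the 6 libraries in which all 8 were open. The median over all open coding promoters was 38.9 and 47.5 in these libraries. Among the 8 promoters, Bcl2l11 varied most between libraries, with the highest fold 3.53 times the lowest, followed by Bbc3 (2.55 times) and Bmf (2.27 times). Mcl1 varied least, at 1.27 times.

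**Figure D1:**
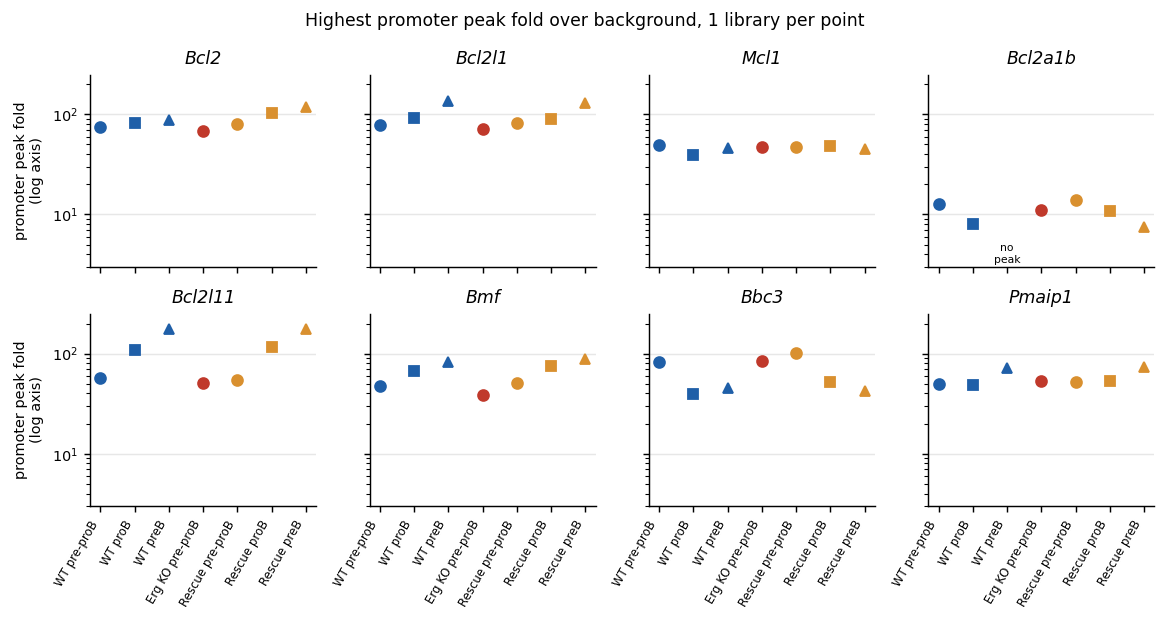
The highest fold of a peak at the promoter of each gene (log axis) is plotted for the 7 libraries, with 1 point per library. WT is blue, Erg KO red and Rescue orange, with circles for pre-proB, squares for proB and triangles for preB. Bcl2l11 and Bmf were higher in proB and preB than in pre-proB libraries, Bbc3 was lower, and Mcl1 stayed between 39.0 and 49.4.

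Across the lists, 56 of the 138 regions (40.6%, Wilson 95% interval 32.7 to 48.9%) had a peak in all 7, against 32% of all regions. A further 17 (12.3%) had a peak in all 3 pre-proB lists and in neither WT proB nor WT preB, against 17.7% of all regions, and 10 of these lay at Bcl2. The opposite pattern, a peak in the 4 proB and preB lists and in no pre-proB list, was found at 11 regions (7.97%, against 5.19%), 4 each at Bcl2l1 and Bmf, 2 at Bcl2l11 and 1 at Bcl2. Peaks in a single list made up 22 regions (15.9%, against 17.8%), 13 of them at Bcl2. Bbc3 stood at the other end, with all 5 regions open in all 7 lists.

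**Figure D2:**
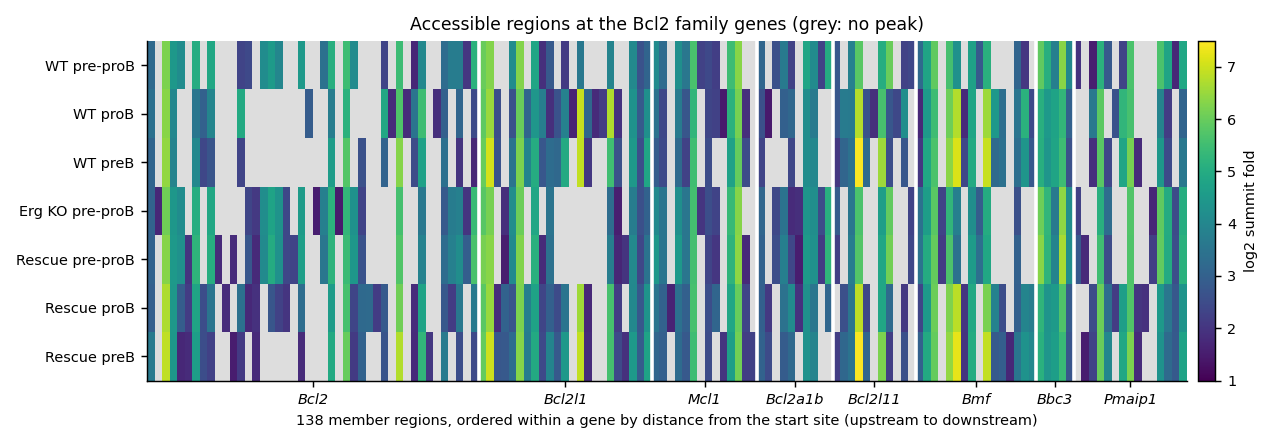
Each of the 138 regions is a column, grouped by gene and ordered from upstream to downstream, and each library is a row. Colour gives the log2 summit fold and grey marks the absence of a peak. The 3 pre-proB rows share blocks of Bcl2 columns that are grey in WT proB and WT preB, while Bbc3 is filled in every row.

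Among the guardians, Bcl2 held the most regions that differed between WT pre-proB and WT proB cells. It also held the most regions of any kind, 44 of the 138. Bcl2 (ENSMUSG00000057329, chr1:106538178-106714274, minus strand) has a start-site promoter region whose fold was 74.8, 81.8 and 87.9 in the WT stages, 68.3 in Erg KO pre-proB and 79.9, 103 and 118 across the Rescue stages. Its promoter therefore varied by 1.73 times, and the intron varied far more. Of 30 Bcl2 regions open in WT pre-proB or WT proB, 10 had a peak in pre-proB only and 5 in proB only, against 26.3% and 23.5% of all regions. Of the 15 shared ones, 3 were more than 2-fold higher in pre-proB and 4 in proB, against 15% and 14.8% of all.

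Of these 10 pre-proB regions of Bcl2, 8 had a −log10 q of at least 20 in the WT pre-proB list. The one at 84695 bp from the start site, printed above, had folds of 23.3, 27.5 and 32.2 in the WT, Erg KO and Rescue pre-proB libraries. It had no peak in WT proB, WT preB or Rescue preB, and a fold of 6.68 in Rescue proB. The region at 100444 bp had folds of 22.3, 23.8 and 25.4 in the 3 pre-proB libraries, in the same order. It had no peak in WT proB or WT preB, and 10.02 and 3.51 in Rescue proB and Rescue preB. The remaining 6, at 5785, 73121, 86497, 124531, 144135 and 188249 bp, had folds between 10.7 and 21.8 in the pre-proB libraries. All 8 kept a peak in both Erg-deficient pre-proB lists. Outside this group, the region 195245 bp from the start site and downstream of the gene was ordered the same way, with folds of 36.4, 5.54 and 3.29 in WT pre-proB, proB and preB, and 42.7 in Erg KO pre-proB.

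Other Bcl2 intron regions were at their highest in WT proB. The region at 49984 bp had folds of 5.04, 30.6 and 5.04 in the WT stages. The region at 157487 bp had 5.04, 29.9 and 8.33. Both were without a peak in Erg KO and Rescue pre-proB, and in Rescue proB they were 10.5 and 7.13, so the WT proB fold of the second was 4.20 times (2.92 to 6.54) that in Rescue proB. The region at 160164 bp, by contrast, was open in every library, from 43.8 in WT pre-proB to 107 in Rescue preB.

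**Figure D3:**
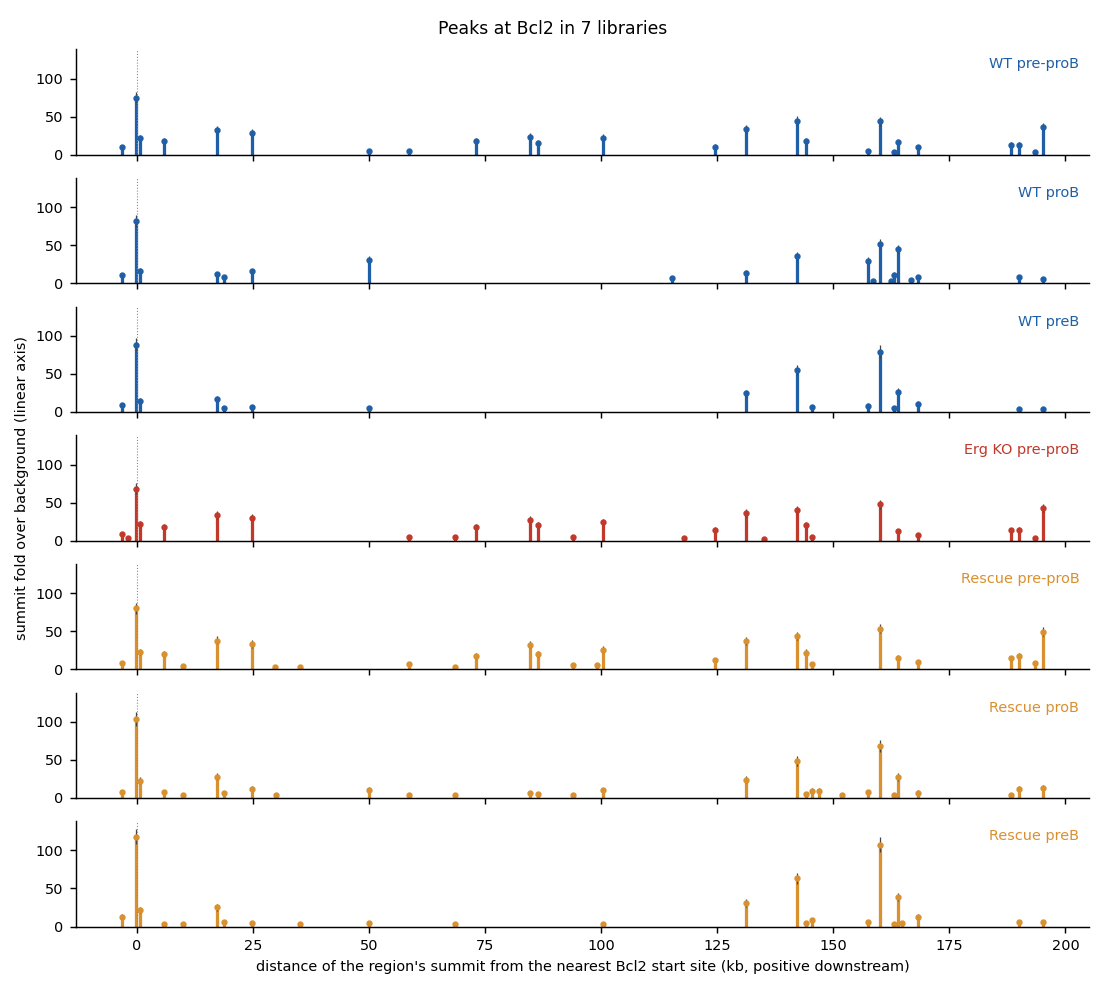
Peaks at Bcl2 are drawn at the distance of the region's summit from the nearest start site (kb, positive downstream), in 1 panel per library, with the summit fold as height on a linear axis. Vertical black lines are 95% counting intervals. The region at 84695 bp stands in the 3 pre-proB panels at 23.3 to 32.2 and is absent from WT proB and WT preB, whereas that at 49984 bp reaches 30.6 in WT proB and at most 10.5 elsewhere.

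Bcl2l1 (ENSMUSG00000007659, chr2:152780668-152831728, minus strand) had intron regions that were more open in WT proB than in WT pre-proB. Of 21 regions open in either, none was in pre-proB only and 8 were in proB only, against 26.3% and 23.5% of all regions. Of 13 shared regions, 5 were more than 2-fold higher in proB and 1 in pre-proB, against 14.8% and 15% of all. The region 35690 bp from the start site, in the long intron of the gene (chr2:152793889-152795340, printed above), had folds of 12.2, 125 and 119 in the WT stages. It had no peak in Erg KO or Rescue pre-proB, and reached 94.4 in Rescue proB and 120 in Rescue preB. The WT proB fold was 10.2 times the WT pre-proB fold (7.97 to 13.7). All 4 proB and preB libraries were thus far above WT pre-proB, which in turn was the only pre-proB library with a call.

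A second Bcl2l1 intron region, at 40503 bp (chr2:152788639-152790389), had a peak in all 7 libraries. Its fold was 14.9, 107 and 45.2 in the WT stages, 9.89 in the Erg KO library and 13.6, 49.0 and 48.1 across the Rescue stages. WT proB was 7.15 times WT pre-proB (5.68 to 9.31) and 2.18 times Rescue proB (1.87 to 2.56). The promoter was open throughout, at 78.9, 92.5 and 135 in the WT stages, 72.2 in Erg KO pre-proB and 81.5, 89.8 and 130 across the Rescue stages. The region 16175 bp upstream, with folds from 56.3 to 72.2, lies at the promoter of Tpx2, a neighbouring gene.

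**Figure D4:**
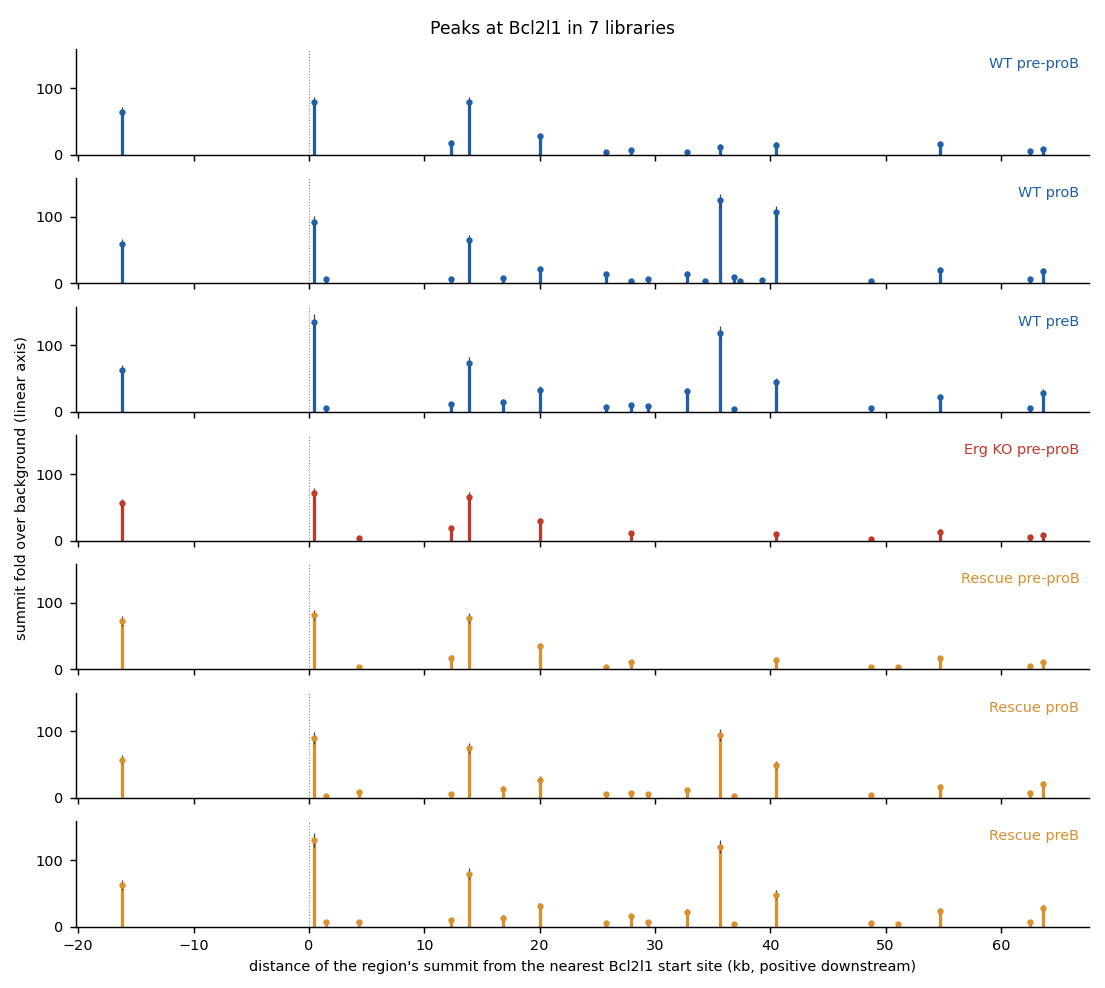
Peaks at Bcl2l1 are drawn as in the map of Bcl2, with distance from the nearest start site in kb and the summit fold on a linear axis, and black lines for 95% counting intervals. The region at 35690 bp is between 94.4 and 125 in the 4 proB and preB panels, 12.2 in WT pre-proB and without a peak in the other pre-proB panels.

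Mcl1 (ENSMUSG00000038612, chr3:95658788-95663176, plus strand), whose product is short-lived and needed continuously, had a promoter that changed little. Its promoter fold was 49.4, 39.0 and 45.6 in the WT stages, 47.1 in Erg KO pre-proB and 47.0, 48.6 and 45.0 across the Rescue stages. No shared Mcl1 region passed 2-fold in any of the 7 pairs of libraries compared, which do not include WT pre-proB against WT preB. The region 15493 bp downstream of the start site was the most open one, with folds between 62.2 and 84.7. Upstream regions, at 4982, 6351, 8052 and 13270 bp, were lower in all WT and Rescue proB and preB libraries than in any pre-proB library, for example 17.6 in WT pre-proB against 11.1 and 7.67 in WT proB and WT preB at 13270 bp.

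Bcl2a1b (ENSMUSG00000089929, chr9:89199209-89207827, plus strand) had the weakest promoter of the group, with folds of 12.6 and 7.94 in WT pre-proB and proB, no WT preB peak, 11.2 in Erg KO pre-proB, and 13.9, 10.9 and 7.43 across the Rescue stages. The promoter window also holds a start site of Gm29094. The A1 copies are nearly identical, so the assignment of fragments to one copy, and with it these folds, is uncertain. The region 29040 bp from the start site, inside the neighbouring gene Mthfs, was a pre-proB region, with folds of 32.2, 34.3 and 38.2 in WT, Erg KO and Rescue pre-proB, 8.91 in Rescue proB and no peak in WT proB, WT preB or Rescue preB.

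Among the BH3-only genes, Bcl2l11 (ENSMUSG00000027381, chr2:128126038-128162547, plus strand) combined a promoter that was more open at later stages with an intron element that was less open. The promoter fold was 57.2, 109 and 175 in the WT stages, 50.4 in Erg KO pre-proB and 54.5, 116 and 178 across the Rescue stages. All 4 later libraries lay above all 3 pre-proB libraries. The intron element 30204 bp from the start site (chr2:128155840-128156732, printed above) went the other way, with folds of 64.9, 6.83 and 5.92 in the WT stages, 61.6 in Erg KO pre-proB and 69.0, 9.58 and 4.54 across the Rescue stages. WT pre-proB was 9.51 times WT proB (6.90 to 14.2), the highest ratio in that direction among shared member regions. Another region, at 26840 bp in the same intron, was 33.0, 49.1 and 94.0 in the WT stages, 24.9 in Erg KO pre-proB and 28.8, 29.0 and 74.7 across the Rescue stages.

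Bmf (ENSMUSG00000040093, chr2:118528757-118549687, minus strand) had its most open chromatin inside the gene at later stages. A broad region 3137 bp from a start site (chr2:118544078-118547069) had folds of 19.4, 108 and 140 in the WT stages, 13.9 in Erg KO pre-proB and 10.7, 113 and 153 across the Rescue stages. WT proB was 5.58 times WT pre-proB (4.54 to 7.04). The merged region reached the promoter window of a Bmf start site, but its folds in the proB and preB libraries are not among the promoter folds. The promoter fold of Bmf was 47.7, 66.5 and 83.1 in the WT stages, 38.5 in Erg KO pre-proB and 51.5, 75.5 and 87.5 across the Rescue stages. The intron region at 13364 bp had folds of 35.1, 94.2 and 124 in the WT stages, 31.7 in Erg KO pre-proB and 29.3, 73.1 and 120 across the Rescue stages. The region 28732 bp from the start site, downstream of the gene and printed above, had folds of 4.07, 35.8 and 21.04 in the WT stages, no peak in Erg KO or Rescue pre-proB, and 15.4 and 20.01 in Rescue proB and preB. A further 4 Bmf regions had a peak in all 4 proB and preB lists and in no pre-proB list, the strongest at 17788 bp with a fold of 22.0 in WT proB.

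Bbc3 (ENSMUSG00000002083, chr7:16308393-16318205, plus strand), a target of p53, was the BH3-only gene with a promoter more open in pre-proB cells. The fold was 81.6, 39.5 and 44.9 in the WT stages, 83.6 in Erg KO pre-proB and 100.6, 52.6 and 42.1 across the Rescue stages. WT pre-proB was 2.07 times WT proB (1.75 to 2.45). The upstream region at 14014 bp was also highest in pre-proB, with folds of 60.1, 34.5 and 34.0 in the WT stages and 66.9 in Erg KO pre-proB, while the one at 9822 bp was the reverse, at 14.0, 27.3 and 27.8 in the WT stages and 12.6 in Erg KO pre-proB.

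Pmaip1 (ENSMUSG00000024521, chromosome 18, 66458533 to 66465565, plus strand), the other p53 target of the group, had a promoter fold of 50.2, 49.1 and 71.7 in the WT stages, 53.5 in Erg KO pre-proB and 52.0, 53.2 and 73.9 across the Rescue stages. The region 5056 bp upstream was 5.04, 38.8 and 28.1 in the WT stages, without a peak in Erg KO and Rescue pre-proB, and 25.2 and 29.1 in Rescue proB and preB. The region 15450 bp downstream of the start site was 27.7, 4.43 and 5.48 in the WT stages, 32.1 in Erg KO pre-proB and 31.3, 12.03 and 9.49 across the Rescue stages. Downstream regions at 12287 and 19757 bp were also higher in all 3 pre-proB libraries than in any other library.

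From WT pre-proB to WT proB, the comparison that spans commitment to the B lineage, regions of the group differed in both directions, except that Bbc3 had none in 1 list only and Bcl2l1 none in pre-proB only. Of 113 regions open in either, 19 (16.8%) were in pre-proB only, against 26.3% of all regions, and 25 (22.1%) in proB only, against 23.5%. Of 69 shared regions, 9 (13.0%) were more than 2-fold higher in pre-proB, against 15% of all, and 17 (24.6%, interval 16.0 to 36.0%) in proB, against 14.8%. The highest proB to pre-proB ratios were those of the Bcl2l1 region at 35690 bp (10.2 times), the Bmf region at 28732 bp (8.80 times, 5.79 to 15.4) and the Pmaip1 region 5056 bp upstream (7.69 times, 5.25 to 12.6). Peaks in WT proB only with a −log10 q of at least 20 numbered 7, at Bcl2 (115284 and 18713 bp), Bcl2l1 (36828 and 16815 bp), Bmf (24227 and 17788 bp) and Bcl2l11 (5082 bp upstream), with folds from 7.38 to 22.0. Of 10 listed B-lineage genes, 9, 10 and 10 had an open promoter in the WT stages, and their summed fold was 189 in WT pre-proB and 556 in WT proB. Over 10 genes each, the summed promoter fold was 499.6 in WT pre-proB and 327 in WT proB for plasmacytoid dendritic genes, 104 and 47.6 for myeloid, 100.8 and 91.0 for T-cell, 297 and 266 for natural killer and innate lymphoid, and 139 and 137 for erythroid genes. Siglech was 101.4 and 18.6, and Klrb1c 39.5 and 5.54. Other genes of the same lists were ordered the other way. Spib was 48.1 and 83.3, Tcf4 60.1 and 79.9, Gata3 51.6 and 80.1, and Prf1 14.9 and 29.5. The plasmacytoid dendritic sum was 523 in WT preB, above that in WT pre-proB. The part of these markers in the result was not tested.

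From WT proB to WT preB the members differed less. Of 97 regions, 14 (14.4%) were in proB only, against 24.4% of all, and 3 (3.09%) in preB only, against 8.01%. Of 80 shared regions, 11 (13.8%) were more than 2-fold higher in proB, against 9.34%, and 2 (2.5%) in preB, against 4.46%. The Bcl2 regions at 49984 and 157487 bp had the highest ratios in favour of proB, at 6.08 times (4.04 to 10.4) and 3.59 times (2.55 to 5.39). In proB only, the Bcl2 region at 115284 bp (7.38) and the Bcl2a1b promoter (7.94) had a −log10 q of at least 20. The 2 shared regions higher in preB were both in the Bcl2l1 intron, at 27930 and 32754 bp, with ratios of 2.67 and 2.15.

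The question of Erg dependence was addressed by WT against Erg KO pre-proB cells. None of the 78 shared member regions differed by 2-fold in either direction (interval 0 to 4.69% for each), against 0.332% of all shared regions higher in WT and 0.185% higher in Erg KO. The centred log2 ratio of WT over Erg KO ran from −0.73 at the Pmaip1 region at 17948 bp to 0.65 at the Bcl2l1 region at 40503 bp. Of 99 regions open in either, 10 (10.1%, 5.58 to 17.6%) were in WT only, against 5.58% of all, and 11 (11.1%) in Erg KO only, against 12.5%. Of the 10 in WT only, the Bcl2l1 region at 35690 bp, with a −log10 q of 47.9 in WT, alone exceeded a −log10 q of 20. No region in Erg KO only reached that value.

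Rescue pre-proB cells, the other Erg-deficient population at this stage by title, gave like values. Of 103 regions, 10 (9.71%) were in WT only, against 4.6% of all, and 15 (14.6%) in Rescue only, against 14.7%. Of 78 shared regions, 1 passed 2-fold, the Bmf region at 3137 bp, which was 1.81 times higher in WT (1.31 to 2.56) before centring and is counted only because of it, against 0.471% of all shared regions higher in WT and 0.196% higher in Rescue. This comparison shares the WT library with that of Erg KO. Between Erg KO and Rescue pre-proB themselves, 4 of 97 regions (4.12%) were in Erg KO only, against 5.79%, and 8 (8.25%) in Rescue only, against 9.08%. None of their 85 shared regions passed 2-fold, against 0.0906% of all in favour of Erg KO and 0.0589% in favour of Rescue. With Rescue stages read from the source names, the shares past 2-fold became 37.0% for WT against Rescue pre-proB and 31.3% for Erg KO against Rescue pre-proB. That reading takes the library titled Rescue preB as pre-proB, and the same shares over all regions are not given for it. Between WT pre-proB and WT proB, 29.8% of all shared regions passed 2-fold.

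A set of 9 member regions (6.52%, 3.47 to 11.9%) had a peak in WT pre-proB and in all 4 proB and preB lists, but in neither Erg KO nor Rescue pre-proB, against 1.07% of all regions. This pattern was singled out after the values were seen. Bcl2 held 3 of them (at 49984, 157487 and 163078 bp), Bcl2l1 2 (at 32754 and 35690 bp), Pmaip1 2 (5056 and 11817 bp upstream), Bcl2l11 1 (at 33238 bp) and Bmf 1 (at 28732 bp). They lay at guardian and BH3-only genes alike. Their WT pre-proB folds were low, from 2.91 to 12.2 with a median of 4.85. The fold minus 1 in WT pre-proB was between 8.82 and 24.4% of that in WT proB, with a median of 14.0%, and the median was 11.9% over all 1554 regions of this pattern. Only the Bcl2l1 region at 35690 bp was far above the lowest called fold, which was 2.52, 2.38 and 2.32 in the WT, Erg KO and Rescue pre-proB libraries.

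The count of this set depended on list length. With every list cut to its 76465 highest-scoring peaks, 5 of 121 member regions (4.13%) kept the pattern, against 1.39% of all, and with lists of 38232 peaks 1 of 80 (1.25%), against 0.986%. The background pileup was 4.16 in WT, 4.46 in Erg KO and 4.60 in Rescue pre-proB, and the part of depth in the count was not tested. B-lineage promoters differed too: peaks were found at 9 of 10 listed genes in WT pre-proB, 6 in Erg KO and 7 in Rescue pre-proB, with summed folds of 189, 169 and 179. Cd79a had a promoter fold of 11.4 in WT pre-proB, no peak in Erg KO and 3.57 in Rescue pre-proB, and Vpreb1 and Pax5 had folds of 8.53 and 3.68 in WT pre-proB and no peak in the others. Other genes of the list were ordered the other way, with folds in WT, Erg KO and Rescue pre-proB of 21.5, 24.4 and 23.6 at Ebf1, 30.4, 35.4 and 40.4 at Cd22, and 32.2, 32.6 and 36.3 at Rag1. The part of these markers in the result was not tested. Over the 1554 regions of this pattern, the EBF1 motif occurred in 11.3% of windows, against 1.90% of all regions. It occurred in 7.25% of the 7543 regions open in the 4 proB and preB lists and in no pre-proB list. Among the 25764 regions open in the pre-proB lists and in neither WT proB nor WT preB, 0.217% held it. The member regions of these sets held it in 1 of 9, 1 of 11 and 0 of 17, in the same order.

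**Figure D5:**
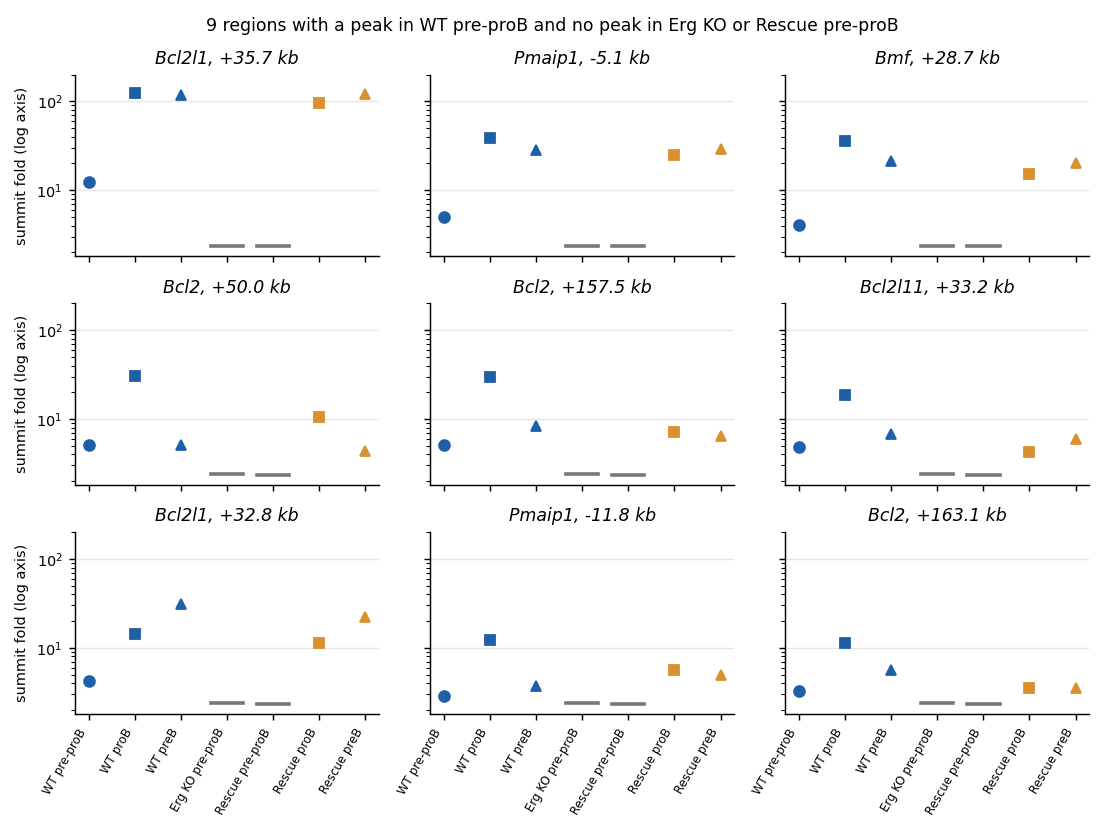
The 9 regions with a peak in WT pre-proB and in no Erg-deficient pre-proB library are each plotted over the 7 libraries, with the summit fold on a log axis and 1 point per library (WT blue, Rescue orange). Grey bars stand for libraries without a peak and are drawn at the lowest fold called there. WT pre-proB points lie between 2.91 and 12.2, all below the WT proB points.

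At the proB stage, WT and Rescue differed more in fold than at the pre-proB stage. Of 116 regions, 11 (9.48%) were in WT only, against 17.5% of all, and 22 (19.0%) in Rescue only, against 16%. The Bcl2 region at 115284 bp was the one in WT only with a −log10 q of at least 20. In Rescue only there were 6, the Bcl2 regions at 100444, 145503 and 146970 bp, the Bcl2l1 region at 4350 bp, the Bcl2a1b region at 29040 bp and the Pmaip1 region 7966 bp upstream, with folds from 8.24 to 10.02. Of 83 shared regions, 10 (12%) were more than 2-fold higher in WT, against 6.67%, and 6 (7.23%) in Rescue, against 5.19%. The Bcl2l11 region at 33238 bp (4.36 times, 2.74 to 8.01) and the Bcl2 regions at 157487 (4.20 times) and 163078 bp (3.16 times) had the highest ratios in favour of WT. Those in favour of Rescue were the Pmaip1 regions at 15450 bp (2.71 times, 1.67 to 4.75) and 19757 bp (2.44 times) and the Bmf region at 36872 bp (2.45 times).

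Several pre-proB regions of Bcl2 still had a peak in Rescue proB. A peak in all 3 pre-proB lists and in Rescue proB, but in neither WT proB nor WT preB, was present at 9 member regions. This share (6.52%, 3.47 to 11.9%) was close to the 5.87% of all regions. At Bcl2 lay 7 of the 9, with 1 each at Bcl2a1b and Pmaip1. Bcl2 also held 44 of the 138 regions, and 10 of the 17 with a peak in all pre-proB lists and in neither WT proB nor WT preB. Their Rescue proB folds were low, for instance 10.02 at the Bcl2 region at 100444 bp and 8.91 at the Bcl2a1b region at 29040 bp. Markers of other cells differed between Rescue proB and WT proB in both directions. Summed promoter folds over 10 genes each were 78.4 in Rescue proB and 47.6 in WT proB for myeloid genes, and 419 and 327 for plasmacytoid dendritic genes. B-lineage genes had 433 and 556, T-cell genes 81.97 and 91.0, natural killer and innate lymphoid genes 296 and 266, and erythroid genes 145 and 137. The T-cell gene Cd8a had promoter folds of 19.2, 20.5 and 30.2 in the WT, Erg KO and Rescue pre-proB libraries and 6.90 in Rescue proB, and no peak in WT proB or WT preB. Cd3g had 10.5, 13.01 and 15.01 in the pre-proB libraries, 3.56 in Rescue proB and no peak in WT proB or WT preB. Other T-cell genes went the opposite way between Rescue proB and WT proB. Lck had 16.0 and 22.9, Cd5 51.7 and 59.1, and Cd247 3.79 and 5.91. Cd4 had no peak in Rescue proB and 3.14 in WT proB. The T-cell markers Cd3e, Cd3d, Themis and Trac had no promoter peak in any library, nor had the myeloid genes Elane, S100a8 and S100a9. The part of these markers in the result was not tested.

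At the preB stage WT and Rescue were closer. None of 99 regions was in WT only, against 6.6% of all, and 16 (16.2%) were in Rescue only, against 16.2%, of which the Bcl2a1b promoter (7.43) reached a −log10 q of 20. Of 83 shared regions, none was more than 2-fold higher in WT, against 1.26%, and 3 (3.61%) were in Rescue, against 2.2%. These 3 were the Pmaip1 region 7966 bp upstream (3.06 times, 1.96 to 5.26), the Bmf region at 36872 bp (2.29 times) and the Pmaip1 region at 19757 bp (2.26 times). By title, the share of member regions in 1 list only was highest at the proB stage, at 28.4%. The share over all regions was also highest there, at 33.5%, against 19.3% at pre-proB and 22.8% at preB. With stages read from the source names it was also highest there, at 50.4%. The share past 2-fold was then highest at the pre-proB stage, at 37.0% against 30.6% at proB. For stages read from the source names, the same shares over all regions are not given. By title, Rescue pre-proB lacked a promoter peak at Vpreb1 and Pax5, and Rescue proB and preB had one at both.

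The other genes of the pathway had promoters that differed less in presence than in fold. All 3 effectors (Bax, Bak1, Bok) had a promoter peak in all 7 lists. Of the apoptosome and its regulators, Apaf1, Casp9, Cycs, Diablo and Xiap had a promoter peak in all 7 lists. Bid, which links death receptors to the mitochondria, was nearly flat between 54.4 and 63.4, and Bad and Bik were open in all lists, whereas Hrk had a peak in 5. Among the other guardians, Bcl2l2 was open in all 7 lists with folds between 5.57 and 10.4, Bcl2l10 in none and Bcl2a1a in 1 (4.01 in Rescue proB). Bcl2a1d, another A1 copy, had folds of 24.6, 5.91 and 4.16 in the WT stages, 23.3 in Erg KO pre-proB and 31.5, 14.0 and 6.81 across the Rescue stages. Xiap, a caspase inhibitor, was 29.5, 16.1 and 11.2 in the WT stages and 31.7 in Erg KO pre-proB.

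The genes whose promoter pattern was most like that of each member were sought among coding genes open in all 7 lists with a range of at least 1 on the log2 scale, 3153 or 3154 in number. The Pearson correlation of the log2 promoter fold was taken over the 7 libraries, of which 3 are pre-proB. Bcl2l11 was most like Cyth3 and Rasl10a (0.999 for both), Bmf like Tm7sf3 (0.997) and Syt7 (0.995), and Bbc3 like Atp5d (0.999) and Evi2 (0.992). Pmaip1 was most like Hlcs (0.996) and Cerk (0.967), Bcl2l1 like Kcnj16 (0.990) and Tent5a (0.987), and Bcl2 like Dock3 (0.983) and Coa6 (0.980). Mcl1, with a range of 0.34 on the log2 scale, was most like Tg (0.915) and Rarg (0.905). These values describe 7 libraries that share their stages, and Bcl2a1b could not be compared because it lacked a peak in 1 list.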

How the data were processed

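The study sorted B-cell precursors, tagmented nuclei with Tn5 per the labels (its methods name sonication), aligned reads to mm10 with Bowtie2 and called peaks with MACS2, 1 list per library. CASAVA 1.8.2, Picard, Bowtie2 and MACS2 are named in the submitters' processing notes. Other versions, the options, the treatment of duplicates and any shift of reads were not given in the sources used here, so how they shaped fold values is unknown. The fold that the authors deposited is a ratio of summit to background pileup, each with 1 added. Pileups were recovered because all folds (100%) of a library were whole multiples of one step, to within 0.02 steps. The authors also deposited −log10 values of p and q at the summit, and a score equal to 10 times −log10 q without its decimals. Of these, the score ranked peaks and the −log10 q chose regions.

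Peaks of all lists were merged where they overlapped by at least 1 bp (Python 3.11.15, pandas 2.3.3, scipy 1.17.1). Genes and start sites came from GENCODE M21 basic, and sequences from GRCm38.p6, whose 21 chromosomes contained all peaks used. Shares carry Wilson 95% intervals, which treat regions as independent draws. Fold ratios carry exact binomial ones from the pileups, which cover counting error only. Library size was not used, because the lists hold no read totals. Counting was tested on simulated lists with known changes. The members and lists were chosen with earlier results of these data known. Text names all 8 promoters, unshared regions with a −log10 q of at least 20, the 3 highest ratios past 2-fold in each direction and the most open region of each gene, and other regions named were chosen after their values were seen. Alternatives were equal and shorter lists, 50% reciprocal overlap, flanks of 0 and 50 kb, a 2500 bp promoter window, no centring, ranks of the score (20 points) and Rescue stages from the source names. Some genes of the fixed lists are not reported here.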

Additional observations from a re-analysis of the deposited data

Results flagged for a closer look

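Regions that moved in opposite directions in WT and Rescue cells were singled out, where a move was a peak in 1 of the 2 lists only or a centred ratio of at least 2-fold. Between the pre-proB and proB stages 1 region did so, the Pmaip1 region 7966 bp upstream of the start site. In WT its fold was 6.98 in pre-proB with no peak in proB, and in Rescue it was 5.72 and 10.02. Between the proB and preB stages 1 region did so, the Mcl1 region 8934 bp downstream of the start site, which had a fold of 2.77 in WT proB and 3.92 in Rescue preB and no peak in the other 5 lists. By this limit the same region was also the 1 region in which Rescue was below WT at proB and above it at preB. The Bcl2 region at 163919 bp had both patterns within 2-fold, with folds of 44.9 and 26.5 in WT proB and preB and 27.4 and 38.6 in Rescue proB and preB. These differences were not tested, since each group has 1 library. The same counts were not made over all regions, so whether 1 member region is many or few is unknown. Both Mcl1 folds lie close to the lowest called folds of 2.40 in WT proB and 2.48 in Rescue preB.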

How the results depend on the processing

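Shares of member regions with a peak in 1 of 2 lists depended on how lists were cut and overlapped. For the shares in this section, the same share over all regions is not given. Whether the members moved with the series or apart from it is therefore unknown. With lists of equal length the share for WT against Erg KO pre-proB was 12.9%, in place of 21.2%. With lists of 38232 peaks it was 14.0%, for WT against Rescue pre-proB 5.36% (24.3% as reported) and for WT proB against preB 27.9% (17.5%). A 50% reciprocal overlap gave 54.8% for WT pre-proB against proB (38.9%), 26.9% for WT proB against preB, 31.6% for WT against Erg KO pre-proB, 37.4% for WT against Rescue proB (28.4%) and 24.1% for Erg KO against Rescue pre-proB (12.4%). Stages from the source names gave 36.0% for WT against Rescue pre-proB, 50.4% for WT against Rescue proB and 44.6% for Erg KO against Rescue pre-proB. The shares past 2-fold were then 37.0%, 30.6% and 31.3% in these pairs, in place of 1.28%, 19.3% and 0%. Without centring the share past 2-fold was 0% for WT against Rescue pre-proB. Ranks of the score gave 12.05% for WT against Rescue preB (3.61%) and 4.71% for Erg KO against Rescue pre-proB. The set of 9 regions missing from Erg-deficient pre-proB lists became 5 with equal lists, 1 with lists of 38232 peaks and 0 with stages from the source names, and 10 when Rescue libraries were left out, alternatives chosen after seeing the data. Flanks of 0 and 50 kb and a promoter window of 2500 bp moved no share or count beyond its limits, the reported interval for shares and 1.5 times for counts. The causes of these shifts were not tested. No paired analysis was possible because each group has 1 library. Depth limits regions near the lowest called fold.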
